A study of Homo sapiens with 12 samples.

Results

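The clustered histone genes were taken as the genes whose symbol begins with H1-1 to H1-6, or with H2AC, H2BC, H3C or H4C and a number. On the arrays of this study, 42 probe sets carried exactly 1 such symbol. They stand for 41 of the 11963 genes that had a probe set with 1 symbol, with 6 genes for the linker histone H1, 8 for H2A, 12 for H2B, 7 for H3 and 8 for H4. H2BC5 was the gene measured by 2 probe sets, so the H2B class holds 13. A further 20 probe sets carried several symbols, all of them clustered histone genes, and are described by class only. Of the 41 genes, 38 lie on chromosome 6, H2AC25 and H2BC21 lie on chromosome 1, and H2BC12L lies on chromosome 21.

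Expression was measured on 12 arrays, 3 in each of 4 groups. LnCaP cells kept for 24 h with 100 µM nicotine tartrate were set against untreated LnCaP cells, and 22RV1 cells given the same dose for the same time were set against untreated 22RV1 cells. Both lines are established cultures of human prostate cancer. The labels name no vehicle for the untreated cells and do not say whether the 3 replicates of a group were separate cultures, so the p-values reflect only how far these arrays scatter, and that scatter may be technical.

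Histone proteins package DNA: H2A, H2B, H3 and H4 form the core of the nucleosome, and H1 binds the DNA that links nucleosomes. The clustered genes are transcribed mainly in S phase, when new chromatin is assembled behind the replication fork, and most of their mRNAs end in a stem-loop bound by the protein SLBP instead of a poly(A) tail. Some of them, H2BC21, H2BC12 and H2BC5 among them, are also known to give polyadenylated transcripts. The labels name the standard Affymetrix protocol for biotinylated cRNA, which in its usual form primes on poly(A) tails, so the values may report the stem-loop mRNAs only in part. Genes of a class have very similar coding sequences, and a probe set may take up transcripts of several of them, most of all where its identifier ends in _s_at or _x_at, as 12 of the 42 do.

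Histone promoters are short and rich in known elements, and the windows of 4 genes are shown because the results turn on them or because they contrast within a class. H3C6 was the member called after nicotine. H3C3 is an H3 gene whose values were low and differed little between any groups. H2AC8 and H4C8 were among the members with the largest difference between the lines. Each window holds the 250 bases before the RefSeq start, on build GRCh38.p14, at chr6:26223928-26224177 on the plus strand for H3C6, chr6:26045134-26045383 on the plus strand for H3C3, chr6:26216671-26216920 on the plus strand for H2AC8 and chr6:26285535-26285784 on the minus strand for H4C8. Capitals mark CCAAT on either strand (written ATTGG on the reverse) and the octamer ATTTGCAT on either strand (ATGCAAAT on the reverse), the element that POU2F1 binds in H2B promoters.
H3C6: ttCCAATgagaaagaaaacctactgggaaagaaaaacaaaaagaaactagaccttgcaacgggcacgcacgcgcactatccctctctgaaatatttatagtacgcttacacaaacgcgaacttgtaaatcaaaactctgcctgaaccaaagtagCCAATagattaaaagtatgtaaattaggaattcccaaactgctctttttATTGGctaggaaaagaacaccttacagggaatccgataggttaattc
H3C3: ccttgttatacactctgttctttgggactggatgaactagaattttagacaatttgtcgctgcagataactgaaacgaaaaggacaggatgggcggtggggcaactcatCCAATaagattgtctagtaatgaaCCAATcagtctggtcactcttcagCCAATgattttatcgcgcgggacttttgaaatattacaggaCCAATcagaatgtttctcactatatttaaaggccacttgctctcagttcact
H2AC8: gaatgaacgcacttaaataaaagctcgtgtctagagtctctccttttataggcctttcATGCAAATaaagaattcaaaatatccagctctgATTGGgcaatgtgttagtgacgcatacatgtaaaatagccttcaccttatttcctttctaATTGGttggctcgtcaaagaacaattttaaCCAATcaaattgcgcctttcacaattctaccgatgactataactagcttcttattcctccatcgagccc
H4C8: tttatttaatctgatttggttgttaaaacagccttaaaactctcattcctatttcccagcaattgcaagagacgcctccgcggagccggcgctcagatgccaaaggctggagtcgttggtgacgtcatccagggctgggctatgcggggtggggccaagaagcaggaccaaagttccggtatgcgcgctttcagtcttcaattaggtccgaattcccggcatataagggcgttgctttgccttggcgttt
H3C6, H3C3 and H2AC8 held several CCAAT boxes, H2AC8 also held the octamer, and H4C8 held neither motif in this window. Of the 41 genes, 38 had a RefSeq promoter window here. CCAAT was present in 33 of them (86.8%), against 33.0% of all 27305 RefSeq windows of that length. TATAAA, searched on the coding strand, was present in 21 (55.3%), against 7.17% of all windows, and the octamer in 14 (36.8%), against 1.66%. The octamer occurred in 6 of 8 H2A and 8 of 11 H2B windows and in 0 of the H1, H3 and H4 windows. CCAAT was in every H1, H2A, H2B and H3 window and in 2 of 7 H4 windows. Matches of different motifs did not overlap in any member's window.

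Arrays of a group correlated at 0.992 or higher, and arrays of different lines at 0.933 or lower. Of the residual sum of squares over all probe sets, 47.2% fell on the 4 arrays numbered 3. The luminal prostate markers KRT18, KRT8 and TMPRSS2 had high values in both lines, and KLK3, the prostate-specific antigen, lay between 12.2 and 12.9 in LnCaP and between 6.89 and 8.73 in 22RV1 on the log2 scale (first of 2 probe sets). The leukocyte marker PTPRC stayed at 4.46 or lower on all arrays, and 5 leukocyte and endothelial markers (PTPRC, CD3D, CD14, CDH5 and PECAM1, set together after their values were seen) lay between 3.03 and 5.37. Detection calls were not used here, so a value in that range is not shown to be above background. Of the 42 probe sets, 14 had all 4 group means at or below 5.37, and 16 of those called higher in untreated LnCaP had their untreated 22RV1 mean there. VIM, a fibroblast marker that tumour cells can also express, lay between 6.97 and 8.82 in LnCaP and between 9.50 and 10.2 in 22RV1. The collagen markers COL1A1, COL1A2 and COL3A1 did not share this direction. The COL3A1 probe set ending in _x_at lay between 5.03 and 6.12 in LnCaP and between 4.30 and 4.62 in 22RV1. A COL3A1 probe set ending in _s_at lay between 4.78 and 5.66 in LnCaP and between 3.96 and 4.25 in 22RV1. For all other collagen probe sets the ranges of the lines overlapped.

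Untreated LnCaP cells had higher values than untreated 22RV1 cells for most clustered histone probe sets. The class median was highest for H2B, where it depended on the type of probe set, as given below. Of the 42 probe sets, 30 were called higher in LnCaP and 0 lower (limma, Benjamini-Hochberg adjusted p under 0.05), where 22.8% of all 22277 probe sets were called higher and 20.9% lower (43.7% in either direction). The log2 difference was positive for 41 probe sets, with a median of 0.55 against 0.043 over all probe sets. It ran from -0.20 for H1-5 to 4.87 for H4C8. In 16 probe sets the difference was called and above 1 log2 unit (6.05% of all probe sets), and in 14 it was called and above 2 (1.71%). The untreated groups did not overlap in 30 of the 42, with LnCaP above (28.3% of all probe sets), and all 6 LnCaP arrays, treated ones included, lay above all 6 22RV1 arrays in 27 (20.0%). RNA came from whole cultures, so fewer cells that carry a transcript and less transcript per cell cannot be told apart.

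**Figure D1:**
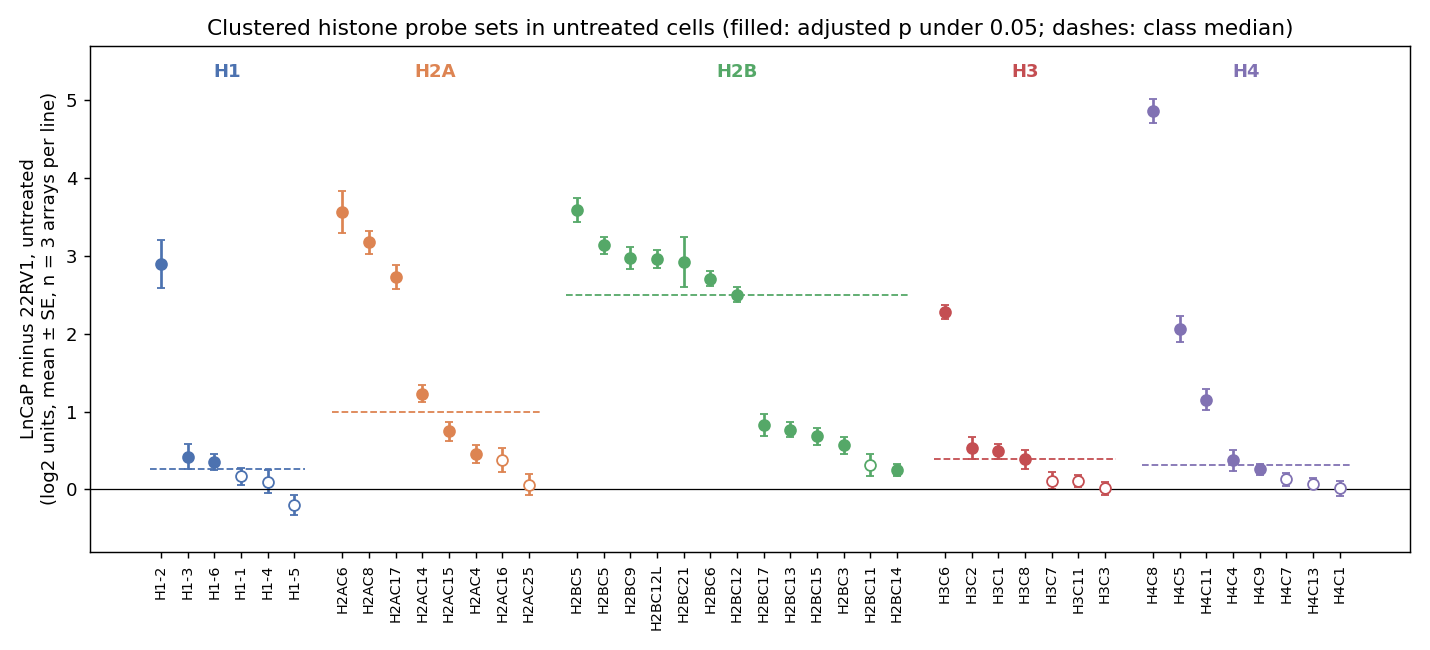
Log2 difference between untreated LnCaP and untreated 22RV1 cells for each of the 42 probe sets, by histone class, as the mean ± SE of the limma fit with 3 arrays per line. Filled points were called, and the dashed line is the class median over all types of probe set. It was 2.50 for H2B and below 1 for the other classes. With plain _at probe sets alone the H2B median was 0.68.

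The class medians were 2.50 log2 units for H2B with 12 of 13 probe sets called, 0.99 for H2A with 6 of 8, 0.39 for H3 with 4 of 7, 0.31 for H4 with 5 of 8 and 0.26 for H1 with 3 of 6. With plain _at probe sets alone the H2B median was 0.68, close to that of H2A under the same setting. In every class at least 1 probe set differed by more than 2 log2 units and others by a small fraction of 1, so the class medians do not describe single genes.

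Among the linker histones, the difference lay mainly in H1-2, one of the somatic H1 subtypes. H1-2 was at 10.80, 10.70 and 11.71 in untreated LnCaP, against 7.75, 7.85 and 8.92 in untreated 22RV1. The third array was the highest in both lines, and the lines did not overlap. The difference was 2.90 ± 0.31 log2 units (SE, n = 3 per line, limma adjusted p = 9.18e-06), or 7.45-fold. H1-3 (0.42) and the testis subtype H1-6 (0.35) were called higher by smaller amounts. H1-1 (0.17) and H1-4 (0.10) were not called. H1-5, the single member with a negative difference, was at 4.18, 4.36 and 4.62 in untreated LnCaP, against 4.57, 4.82 and 4.36 in untreated 22RV1, and these ranges overlapped (-0.20, adjusted p = 0.252). Without the arrays numbered 3, H1-5 was called lower in LnCaP (-0.42, adjusted p = 0.0162), and so it was with array weights (-0.40, adjusted p = 0.0104). All values of H1-5 and all group means of H1-1 lay inside the range of the leukocyte and endothelial markers.

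Among the H2A genes, 3 stood more than 2 log2 units higher in LnCaP. H2AC6 was at 10.42, 10.35 and 9.90 in untreated LnCaP, against 7.27, 6.64 and 6.06 in untreated 22RV1, a difference of 3.56 ± 0.27 (adjusted p = 5.21e-07). H2AC8, whose promoter with its octamer is printed above, was at 7.90, 8.13 and 8.22 in untreated LnCaP, against 5.27, 4.57 and 4.89 in untreated 22RV1. It differed by 3.17 ± 0.15 (adjusted p = 9.02e-09), with 22RV1 values inside the range of the leukocyte and endothelial markers. The lines were well apart for both genes, and H2AC17 followed with 2.73 ± 0.16. Its untreated 22RV1 mean (4.76) also lay inside the range of those markers. H2AC14 (1.23), H2AC15 (0.75) and H2AC4 (0.46) were called higher with smaller differences, and H2AC16 (0.38) was not called. All group means of H2AC16 lay inside that range as well. H2AC25, from the small cluster on chromosome 1, was at 10.50, 10.48 and 10.35 in untreated LnCaP, against 10.51, 10.61 and 10.03 in untreated 22RV1. Its lines overlapped, with a difference of 0.062 and an adjusted p of 0.760.

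The H2B class fell into a group of probe sets above 2 log2 units and a group below 1. In the upper group H2BC12 alone has a plain _at probe set, and in the lower group all do. The probe sets of H2BC5 differed by 3.59 ± 0.16 and 3.14 ± 0.11, the one of H2BC9 by 2.97 ± 0.14, H2BC12L by 2.96 ± 0.12, H2BC21 by 2.92 ± 0.32, H2BC6 by 2.71 ± 0.10 and H2BC12 by 2.50 ± 0.10. H2BC12 was at 11.79, 11.60 and 11.85 in untreated LnCaP, against 9.25, 9.26 and 9.22 in untreated 22RV1, and the arrays of each line lay close together. H2BC21 varied more: it was at 10.92, 10.97 and 10.63 in untreated LnCaP, against 8.59, 8.14 and 7.03 in untreated 22RV1, the third array being the lowest in both lines. The other group held H2BC17 (0.82), H2BC13 (0.77), H2BC15 (0.68), H2BC3 (0.57) and H2BC14 (0.25), all called higher in LnCaP. It also held H2BC11 (0.32), which was not called. All of this lower group had untreated 22RV1 means inside the range of the leukocyte and endothelial markers, and the upper group had them above it. For H2BC11, H2BC14 and H2BC17 every group mean lay inside, so a larger difference could be hidden there.

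Among the H3 genes, which code for the same or nearly the same protein, H3C6 had the largest difference. It was at 7.78, 7.75 and 7.71 in untreated LnCaP, against 5.46, 5.50 and 5.44 in untreated 22RV1. With replicates this close, the difference was 2.28 ± 0.094 log2 units, or 4.86-fold (adjusted p = 2.08e-09). The untreated 22RV1 values of H3C6 lay just above the range of the leukocyte and endothelial markers, which ended at 5.37. H3C2 (0.53), H3C1 (0.49) and H3C8 (0.39) were called higher by much less, and H3C7 (0.11) and H3C11 (0.11) were not called. The group means of H3C1, H3C2, H3C7 and H3C11 all lay inside that range, so a larger difference could be hidden there. H3C3 was at 5.27, 5.44 and 5.24 in untreated LnCaP, against 5.18, 5.34 and 5.40 in untreated 22RV1, with overlapping ranges and a difference of 0.013. The group means of H3C3 also lay inside that range, so H3C3 is not shown to be above background. Both H3C6 and H3C3 have CCAAT boxes and no TATAAA in the windows printed above.

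Among the H4 genes, H4C8 had the largest measured difference of all 42 probe sets. It was at 9.07, 8.87 and 8.82 in untreated LnCaP, against 3.77, 4.36 and 4.02 in untreated 22RV1. The LnCaP arrays were all far above the 22RV1 arrays, by 4.87 ± 0.15 log2 units (adjusted p = 2.15e-10). The 22RV1 values of H4C8 lay within the range of the leukocyte and endothelial markers, so no fold is given. H4C5 was at 7.75, 7.09 and 7.12 in untreated LnCaP, against 5.26 on each of the 3 untreated 22RV1 arrays, a difference of 2.06 ± 0.17. Its 22RV1 values lay inside that range too. H4C11 (1.15), H4C4 (0.37) and H4C9 (0.26) were called higher, whereas H4C7 (0.13), H4C13 (0.071) and H4C1 (0.011) were not called. The group means of H4C7, H4C13 and H4C1 all lay inside that range.

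The type of probe set moved with the size of the difference. The 12 probe sets ending in _s_at or _x_at were all called higher in LnCaP, with a median of 2.94, whereas 18 of the 30 ending in plain _at were called higher, with a median of 0.37. The part of shared transcripts or of low signal in these values was not tested. H1-2, H2AC8, H2AC17, H2BC12, H3C6 and H4C5 are measured by plain _at probe sets and were each more than 2 log2 units higher in LnCaP. A plain _at ending does not mark a probe set as specific to 1 gene. Among the 20 probe sets with several histone symbols, some also end in plain _at, including H4 probe sets with 14 symbols. Of the 20 probe sets with several histone symbols, 18 were called higher and 1 lower, with a median of 1.94.

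Along chromosome 6, genes with large and small differences stood side by side. H1-2 (2.90) lies between H3C3 (0.013) and H1-6 (0.35), and H1-4 (0.10) lies between H2AC6 (3.56) and H2BC5 (3.59 and 3.14). H4C8, with the largest difference, is next to H3C8 (0.39). In 3 pairs an H2A and an H2B gene are read in opposite directions from windows that share bases. H2AC17 differed by 2.73 and its partner H2BC17 by 0.82 (239 shared bases), H2AC14 by 1.23 and H2BC14 by 0.25 (244 shared bases), and H2AC15 by 0.75 and H2BC15 by 0.68 (193 shared bases). The first of these pairs was thus unequal on the array and the last nearly equal. Probe sets of different genes differ in their response, so only the differences are compared here. The group means of H2BC17, H2BC14 and H3C3 all lay inside the range of the leukocyte and endothelial markers, and H2BC15 had its 22RV1 means there. A larger difference could be hidden at that level.

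**Figure D2:**
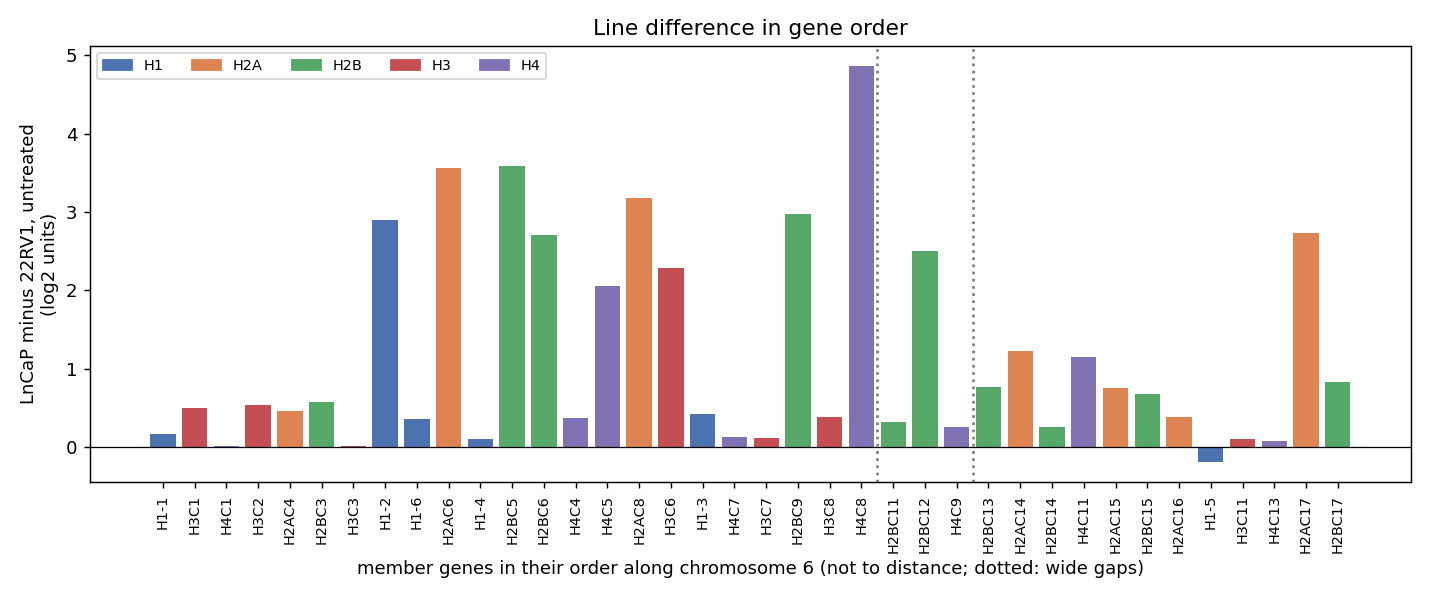
Log2 difference between untreated LnCaP and untreated 22RV1 cells for the member genes in their order along chromosome 6, coloured by class and not drawn to distance, with dotted lines at wide gaps and the first of 2 probe sets for H2BC5. Bars above 2 stand next to bars near 0, as for H1-2 (2.90) beside H3C3 (0.013). The group means of H3C3 lay inside the range of the leukocyte and endothelial markers.

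For the companion lists below, the shares over all probe sets between the untreated lines were 22.8% called higher in LnCaP and 20.9% lower. Of 40 probe sets of replication genes, 0 were called higher in LnCaP and 33 lower, with a median of -0.71. DUT, which makes the dUMP used for thymidine synthesis, was at -2.39 log2 units, the licensing factor CDT1 at -2.22 and the DNA ligase LIG1 at -2.06. Of 45 probe sets of histone chaperones and importers, 9 were called higher and 23 lower (median -0.23). The probe sets of NASP, a chaperone of H3 and H4 and of H1, were at -2.12 and -0.68. Those of ANP32E, a chaperone of H2A.Z, were at -2.19 and -1.74. Of 38 probe sets for histone gene transcription and 3′ end formation, 7 were called higher and 18 lower (median -0.37). CASP8AP2, needed for histone mRNA processing, was at -2.23, and CCNE1, the cyclin that activates CDK2 at S phase entry, was at 1.19. SLBP and NPAT, the co-activator of the histone clusters, were chosen after their values were seen: SLBP was at -0.78 (adjusted p = 0.000168), and the 3 NPAT probe sets were at -0.21, -0.060 and 0.057, none of them called. Of 17 probe sets of histone variants, 2 were called higher and 7 lower. H2AJ was at 2.17, MACROH2A2 at 0.82, the H2AZ2 probe sets at -1.02, -0.93 and -0.66, and MACROH2A1 at -1.41 on its second probe set. The part of these genes in the histone difference was not tested.

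After nicotine, LnCaP cells had a higher value of H3C6, and no other clustered histone probe set was called. The call for H3C6 makes 1 of 42 (limma adjusted p under 0.05), where 0.112% of all probe sets were called higher, 0.359% lower and 0.471% in either direction. Of the 42 log2 fold changes, 23 were positive and 19 negative, with a median of 0.029 against 0.0034 over all probe sets and a range from -0.38 to 0.57. At an unadjusted p under 0.05 there were 7 members and 2372 probe sets in all (10.6%). The nicotine and untreated arrays did not overlap in 6 members with nicotine above (6.81% of all probe sets) and in 2 with nicotine below (8.49%). With the replicate number as a block, 3 members were called higher and 0 lower. In that fit 1.57% of all probe sets were called higher, 2.23% lower and 3.8% in either direction.

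H3C6 was at 8.41, 8.40 and 8.13 in LnCaP with nicotine, against 7.78, 7.75 and 7.71 in untreated LnCaP. All treated arrays lay above all untreated ones, and the third treated array was the lowest of its group. The change was 0.57 ± 0.094 log2 units (SE, n = 3 per group), or 1.48-fold, with an adjusted p of 0.0288 and of 0.0117 with the block. The call was lost when LnCaP alone was fitted (adjusted p = 0.107). It was also lost without 1 of the LnCaP arrays, namely nicotine replicate 1 (0.0942) or 2 (0.157) or untreated replicate 1 (0.0852), 2 (0.0569) or 3 (0.102), and without untreated replicate 2 of 22RV1 (0.0522). With 1 array left out, whichever it was, the change itself stayed between 0.52 and 0.66.

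**Figure D3:**
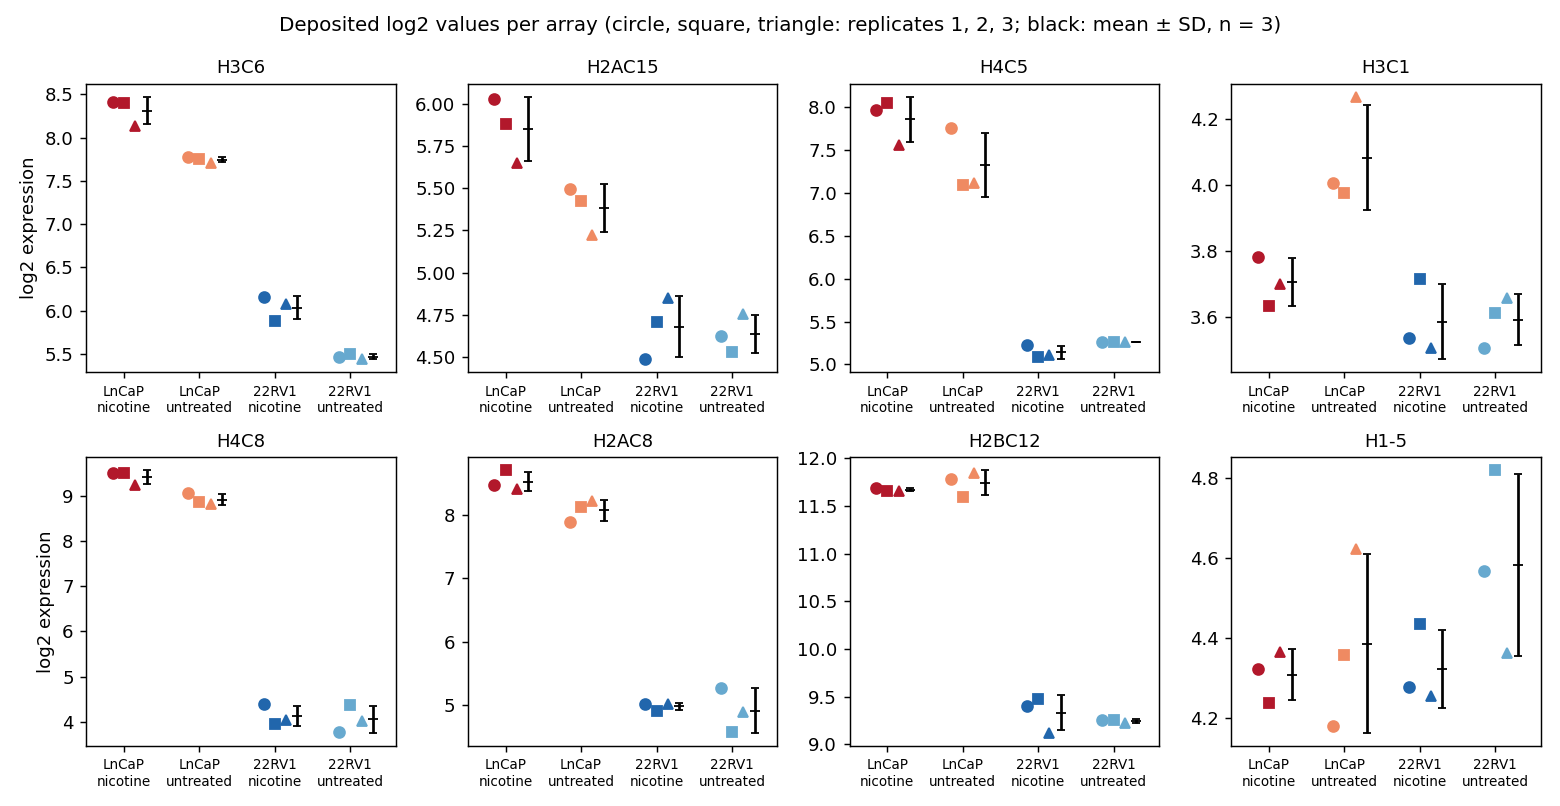
Deposited log2 values on each array for 8 members, with circles, squares and triangles for replicates 1, 2 and 3 and bars for the mean ± SD of the 3 arrays of a group. The nicotine arrays of H3C6 lie above the untreated ones in both lines. Those of H2AC15, H4C8 and H2AC8 lie above them in LnCaP and overlap with them in 22RV1. The 22RV1 values of H2AC15, H4C8 and H2AC8 lie inside the range of the leukocyte and endothelial markers. The vertical axes differ between panels.

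H2AC15 and H4C5 were called with the block and not without it. H2AC15 was at 6.03, 5.88 and 5.65 in LnCaP with nicotine, against 5.50, 5.43 and 5.22 in untreated LnCaP, and the groups did not overlap. It changed by 0.47 ± 0.12, with an adjusted p of 0.127 and of 0.0168 with the block. H4C5 was at 7.97, 8.05 and 7.56 in LnCaP with nicotine, against 7.75, 7.09 and 7.12 in untreated LnCaP, where the first untreated array lay above the third treated one. Its change was 0.53 ± 0.17, with an adjusted p of 0.207 and of 0.0488 with the block. H3C1 had the largest negative change as measured, with values on all arrays inside the range of the leukocyte and endothelial markers. It was at 3.78, 3.63 and 3.70 in LnCaP with nicotine, against 4.01, 3.97 and 4.27 in untreated LnCaP, without overlap, and missed the threshold in both fits (-0.38 ± 0.10, adjusted p = 0.116, and 0.0502 with the block).

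By class, the median change in LnCaP was 0.20 for H2A, 0.17 for H4, 0.020 for H2B, -0.050 for H3 and -0.11 for H1. With 1 array left out they ranged from 0.16 to 0.30 for H2A, 0.10 to 0.25 for H4, -0.034 to 0.077 for H2B, -0.078 to 0.076 for H3 and -0.15 to -0.056 for H1. The H2B median was negative without untreated replicate 1 of LnCaP, and the H3 median was positive without untreated replicate 2 (0.0044) or 3 (0.076) of LnCaP. In the H2A class 6 of 8 changes were positive, among them H2AC8 (0.45, adjusted p = 0.264), and the largest negative one was H2AC4 (-0.18). In the H4 class 6 of 8 were positive, with H4C8 at 0.50 (adjusted p = 0.201) and H4C9 at -0.069 as the largest negative one. The H2B changes were small, from -0.16 for H2BC15 to 0.30 for H2BC21, and 7 of 13 were positive. In the H1 class 1 of 6 was positive: H1-2 was at 0.32 and H1-3 at -0.15. The change of H1-2 was smaller with the third arrays than without them. H1-2 was at 11.42, 11.35 and 11.40 in LnCaP with nicotine, against 10.80, 10.70 and 11.71 in untreated LnCaP. Without the arrays numbered 3 it was called higher (0.63, adjusted p = 0.0449), and so was H3C6 (0.64, adjusted p = 0.0434).

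**Figure D4:**
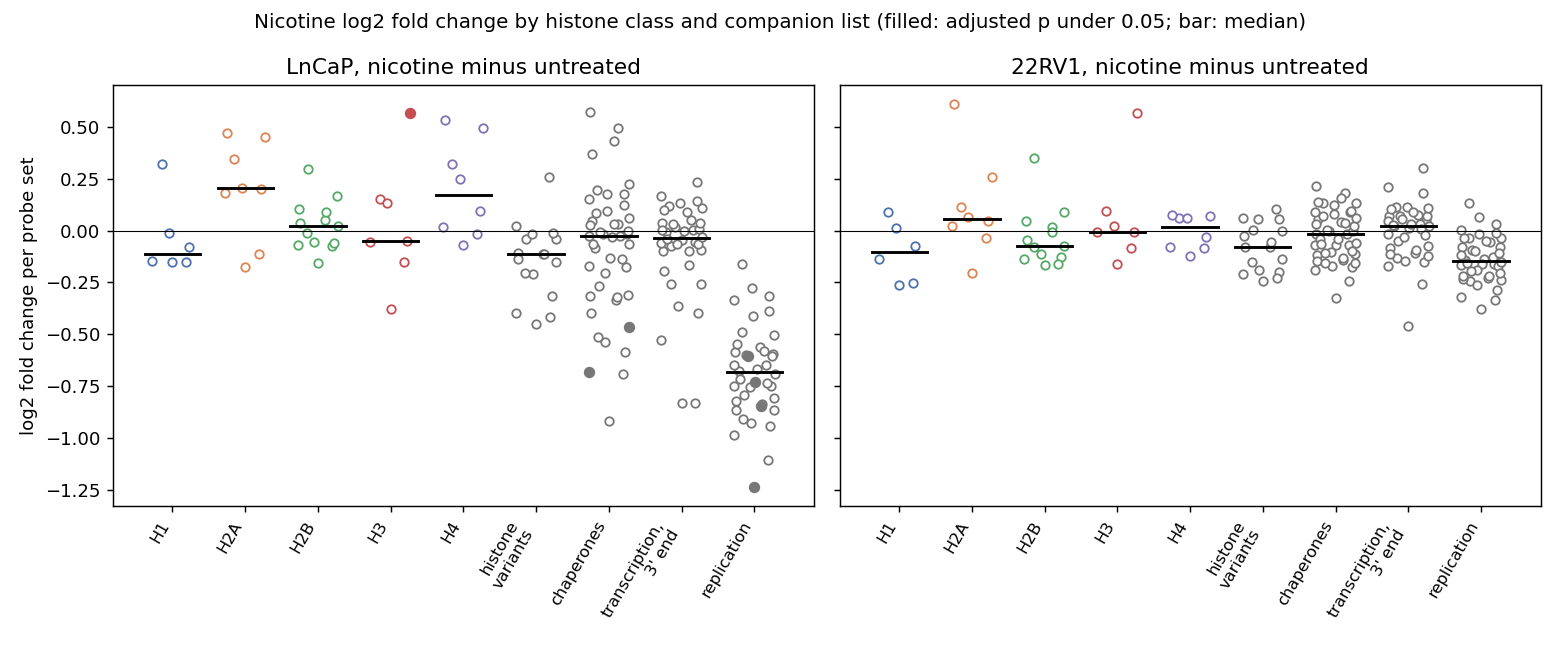
Log2 fold change after nicotine for each probe set, by histone class and companion gene list, in LnCaP on the left and 22RV1 on the right, with filled points for called probe sets and bars for the median. In LnCaP the histone class medians lie between -0.11 and 0.20, whereas the median of the replication genes is -0.68.

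In 22RV1 no clustered histone probe set was called after nicotine, and neither was any of all probe sets (0.0% by limma). At an unadjusted p under 0.05 there were 2 members and 1148 probe sets, and with the block 0 were called, with 5 members and 2306 probe sets at an unadjusted p under 0.05. Of the 42 changes, 19 were positive and 23 negative, with a median of -0.0068 against -0.0023 over all probe sets. The groups did not overlap in 1 member with nicotine above (5.49% of all probe sets) and in 3 with nicotine below (5.84%).

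That member with nicotine above was H3C6. H3C6 was at 6.15, 5.88 and 6.07 in 22RV1 with nicotine, against 5.46, 5.50 and 5.44 in untreated 22RV1, just above the range of the leukocyte and endothelial markers. The change was 0.57 ± 0.094, or 1.48-fold, and was not called (adjusted p = 0.350, and 0.101 with the block), whereas a fit with array weights called it (0.55, adjusted p = 0.0467). H2AC6 had a change of 0.61 ± 0.27 (adjusted p = 0.958). It was at 7.53, 7.31 and 6.96 in 22RV1 with nicotine, against 7.27, 6.64 and 6.06 in untreated 22RV1, so the groups overlapped and the third array was the lowest in both. Treated minus untreated arrays of the same number gave 0.26, 0.67 and 0.90 in 22RV1, and 0.34, 0.40 and 0.31 in LnCaP. With the block the SE in 22RV1 was 0.11 and the adjusted p 0.151, and with 1 array left out the change lay between 0.31 (without untreated replicate 3) and 0.92 (without untreated replicate 1). H2BC21 was at 0.35 with 22RV1 arrays that overlapped likewise, and without untreated replicate 3 its change was -0.095.

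The class medians in 22RV1 lay close to 0, with 0.055 for H2A, 0.016 for H4, -0.0056 for H3, -0.072 for H2B and -0.10 for H1. The largest negative changes of the classes were -0.26 for H1-5, -0.21 for H2AC16, -0.16 for H2BC3, -0.16 for H3C8 and -0.12 for H4C5. The largest positive ones beside H3C6, H2AC6 and H2BC21 were 0.088 for H1-3 and 0.075 for H4C8. The probe sets of H2BC5 differed in sign, at 0.047 and -0.0079. None of these passed the test.

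Averaged over both lines, H3C6 was the member called (0.57 ± 0.067, adjusted p = 0.0130), where 0.0539% of all probe sets were called higher and 0.211% in either direction. Treated arrays were above untreated ones of the same number in 6 of 6 pairs, as follows from groups that did not overlap in either line. The call was lost without nicotine replicate 2 of LnCaP (adjusted p = 0.0705), nicotine replicate 1 of 22RV1 (0.0622) or untreated replicate 3 of 22RV1 (0.0509). With the block, H2AC6 was called too (0.48, adjusted p = 0.0217), and in that fit 0.826% of all probe sets were called higher and 2.01% in either direction. For the difference of the nicotine effect, LnCaP minus 22RV1, limma called 0 members and 0 probe sets in all, with 3 members and 1355 probe sets at an unadjusted p under 0.05. With the block it called 0 members and 0.247% of all probe sets, with 5 members and 2640 probe sets at an unadjusted p under 0.05. For H3C6 this difference was -0.00075 ± 0.13. For H4C5 it was 0.66 (adjusted p = 0.699) and for H2AC15 0.43 (adjusted p = 0.765), so a different response of the lines was not shown for either. The 22RV1 values of both genes lay inside the range of the leukocyte and endothelial markers, where a change could be hidden.

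The replication genes, which are active in the same phase of the cell cycle, lay on the negative side in LnCaP. All 40 of their probe sets had a negative change after nicotine, with a median of -0.68. Of these, 4 were called lower (0.359% of all probe sets), or 31 with the block (2.23%). The groups did not overlap in 23, with nicotine below (8.49% of all probe sets). Relative to the untreated mean, the list median was 0.29, -0.34 and 0.11 on the untreated arrays. On the nicotine arrays it was -0.79, -0.87 and -0.40, so untreated replicate 2 lay near nicotine replicate 3. The helicase loader CDC6 fell by 1.24, the replication factor GINS1 by 0.84, thymidylate synthase TYMS by 0.73 and LIG1 by 0.61. These were the 4 called without the block, and in that fit the second probe sets of CDC6 and TYMS were not called. In 22RV1 36 of 40 were negative with a median of -0.15, and 0 were called, also at an unadjusted p under 0.05. In the same LnCaP arrays the median of the 42 histone probe sets was 0.029, as given above.

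Among the histone variants in LnCaP, 15 of 17 variant probe sets were negative, with a median of -0.12 and 0 called (5 at an unadjusted p under 0.05). CENPA, the centromeric H3, was at -0.45 (adjusted p = 0.105) and the first H2AX probe set at -0.42 (adjusted p = 0.153). Both were called lower with the block (0.0317 and 0.0438), and the other H2AX probe sets were not. Among the 45 chaperone probe sets 0 were called higher and 2 lower (14 at an unadjusted p under 0.05), and with the block 2 were called higher and 7 lower. Over all probe sets, 0.112% were called higher and 0.359% lower, and with the block 1.57% and 2.23%. At an unadjusted p under 0.05 there were 10.6% of all probe sets. HJURP, the chaperone of CENPA, fell by 0.68 (adjusted p = 0.0265) and the first NASP probe set by 0.47 (adjusted p = 0.0493). The second NASP probe set was not called without the block, and the list median was -0.026. Among the 38 probe sets for transcription and 3′ ends 0 were called (7 at an unadjusted p under 0.05), and with the block 0 were called higher and 1 lower, with CDK2 at -0.53 (adjusted p = 0.115, and 0.0203 with the block) and CCNE1 at -0.36 (adjusted p = 0.288). SLBP was at -0.26 (adjusted p = 0.468). In 22RV1 none of these lists had a called probe set, and at an unadjusted p under 0.05 there were 1 variant, 0 chaperone and 2 transcription and 3′ end probe sets. Whether these genes had a part in the values of the clustered histone genes was not tested.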

How the data were processed

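Per the labels' protocols, total RNA was isolated with TRIzol and biotinylated cRNA was hybridised to Affymetrix arrays. The authors deposited log2 expression values for 22277 probe sets on 12 arrays. Their normalization method is not stated in the sources used here. Array medians lay between 6.61 and 6.71, and the values were used as deposited. The number of arrays limits the precision, with a median SE of 0.11 for a log2 fold change within a line. Names came from the platform annotation, in which 19070 had 1 symbol, 1043 had several and 2164 were unlisted. Updating through the Entrez identifier changed 0 symbols.

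Group means over all 12 arrays were estimated with limma 3.58.1 (R 4.3.3; lmFit, then eBayes). Tests were two-sided, with Benjamini-Hochberg adjustment over all probe sets of a contrast. The fit was tested on simulated data. In LnCaP the deviations of same-numbered treated and untreated arrays from their group means correlated at 0.358, 0.179 and 0.554, and in 22RV1 at 0.445, 0.424 and 0.626. All were above 0.1, so the replicate numbers, taken from the labels, were treated as pairs in a second fit with 6 blocks. In LnCaP, treated replicate 1 and untreated replicate 2 also correlated (0.257). In 22RV1 so did treated replicate 1 and untreated replicate 2 (0.249), and treated replicate 2 and untreated replicate 1 (0.199). Numbers 1 and 2 are thus not clearly separated in either line.

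Named members were those called in any contrast, the largest positive and negative change per class in each nicotine contrast, H3C6 in any case, and the probe sets of a gene that differ in sign. H1-1, H1-4, H2AC25, H2BC11, H3C3, H3C7, H3C11, H4C1, H4C7 and H4C13 fall outside this rule and were named after their values were seen, to account for every member. Of each companion list, called probe sets were named, up to 6 by adjusted p, or else the 2 with the smallest p, with a selection of these given where several belong to 1 gene or role. The lists held 26 replication genes, 24 chaperones and importers, 21 genes of transcription and 3′ ends and 9 variants. MCM2 was in both the replication and the chaperone list. The members, the lists and the rule were chosen with earlier results of these data known. Promoters are from RefSeq, build GRCh38.p14. Protein sequences were not used here.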

Additional observations from a re-analysis of the deposited data

How the results depend on the processing

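The alternatives were the replicate block, 1 probe set per gene, members without _s_at and _x_at probe sets, members with those of several symbols, no dim probe sets (19 of the 42 members passed), quantile normalization, median centring, array weights, a variance trend, no arrays numbered 3, each line fitted alone, and each array left out in turn. Of the 30 members called higher in untreated LnCaP than in untreated 22RV1, 25 to 30 were called again with an array left out (25 without untreated replicate 1 of LnCaP), and 28 without the arrays numbered 3. The count of members called was 18 with no dim probe sets, 18 without _s_at and _x_at and 49 with several symbols. The count over all probe sets was 5719 with 1 probe set per gene, where fewer were tested. The median over all members was 0.37 without _s_at and _x_at and 0.87 with several symbols. Under those settings it was 0.60 and 1.23 for H2A and 0.68 and 2.74 for H2B, and it was 1.66 for H2B with 1 probe set per gene and 0.11 for H3 without _s_at and _x_at. For nicotine in LnCaP, members called numbered 3 with the block, 2 without the arrays numbered 3, 0 with LnCaP fitted alone and 0 to 1 with an array left out. All probe sets called numbered 847 with the block, 165 with array weights, 2 with LnCaP alone and 1 to 134 with an array left out. The median over members was 0.071 without the arrays numbered 3, -0.016 without _s_at and _x_at, 0.099 with several symbols and 0.026 to 0.077 with an array left out, and that of H2B was -0.056 without _s_at and _x_at. For nicotine in 22RV1, array weights called 1 member and 8 probe sets and gave an H2B median of 0.0062, H4C8 at -0.056 and the second H2BC5 probe set at 0.14, which was 0.10 without the arrays numbered 3. With an array left out, 22RV1 gave 0 to 1 called probe sets, an H1 median of -0.21 to -0.021 and an H2B median of -0.093 to 0.0078. Single members then ranged from -0.062 to 0.20 (H1-3), -0.095 to 0.68 (H2BC21), -0.064 to 0.16 and -0.092 to 0.054 (H2BC5) and -0.065 to 0.23 (H4C8). For the average, 2 members were called with the block and 0 to 1 with an array left out, and all probe sets called numbered 448 with the block, 78 with no dim probe sets, 120 with array weights, 76 with the variance trend, 16 without the arrays numbered 3 and 0 to 23 with an array left out. For the difference of effects they numbered 55 with the block, 1 with array weights, 10 without the arrays numbered 3 and 0 to 1 with an array left out. The cause of these shifts was not tested.

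The block changed no other call of a member. It has no value for the comparison of the lines, since each block lies within a line. Medians of members that passed the filter on dim values are not given, because some passed through their LnCaP arrays. Scaling moved the median of all probe sets by less than 0.1 in each comparison. A member near the background of the array can hide a change.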

Other observations

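The third array of a group stood to the same side in all 4 groups for several members. It was below both others for H2BC21, H2AC6, H2AC25 and the first H2BC5 probe set (9.52% of members, against 8.26% of all probe sets), and above both for H4C11 (2.38% of members, against 7.47%). H1-2 was highest on the third array in 3 groups. The members were named here after their values were seen.

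Among the 20 probe sets with several histone symbols, 17 had a positive change after nicotine in LnCaP, with a median of 0.16, and 8 in 22RV1, with a median of -0.0085. None was called in either line by limma, with or without the block. Between the untreated lines the 5 of H2B differed by 2.46 to 3.90 log2 units, whereas the 6 of H4 ranged from -0.62 to 1.87. A single one, for H4, was called lower in LnCaP.

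Among the H2B genes with a promoter window, the octamer was found for H2BC6, H2BC9, H2BC12 and H2BC21 and not for H2BC5, whose differences between the untreated lines were above 2 log2 units. It was found for H2BC3, H2BC11, H2BC14 and H2BC17 and not for H2BC13 and H2BC15, whose differences were below 1.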
